A study of Mus musculus with 2 samples.

Results

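The 9 genes described here encode CXC and CX3C chemokines: Cxcl1, Cxcl2, Cxcl3, Cxcl5, Cxcl10, Cxcl12, Cxcl14, Cxcl16 and Cx3cl1. They were chosen by name, and all 9 have a row among the 52796 rows of the deposited gene table. RNA sequencing was done on 4T1 cells, a mouse mammary carcinoma line. In the co-culture group, 4T1 cells shared a transwell system with M2 macrophages for 3 days, with the cancer cells below the membrane and the macrophages above it. The control group was 4T1 cells labelled as control; the labels do not say how long they were cultured or whether an empty insert was used. Each group is 1 library, so no test between the groups could be made, and each value below is a single measurement without replicate error. The co-culture library is titled 4T2, while its treatment label and its table column say 4T1. The labels do not say how the macrophages were obtained or polarised. Values are TPM, a transcript abundance corrected for transcript length, so that levels of different genes in 1 library can be set side by side. TPM keeps no sequencing depth, so the depth is unknown.

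Chemokines are small secreted proteins that guide the movement of leukocytes through G protein-coupled receptors. They are classed by the spacing of their first cysteines: 1 residue lies between them in the CXC class and 3 in the CX3C class. CXC chemokines with the motif glutamate-leucine-arginine (ELR) before these cysteines act on the receptor CXCR2 and attract neutrophils. 4T1 tumours are known for the large numbers of granulocytic cells that they mobilise in the host. CXCL16 and CX3CL1 differ from the rest in being made as transmembrane proteins, which work as adhesion molecules until proteases release the soluble chemokine domain.

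The class motifs were found in the coding sequences of the longest complete protein-coding transcripts in GENCODE M21. The ELR codons stood directly before the cysteine codons in 4 of the 9 genes, Cxcl1, Cxcl2, Cxcl3 and Cxcl5. All 8 Cxcl genes held 1 pair of cysteine codons separated by 1 codon. Cx3cl1 held none of these and 1 pair separated by 3 codons. The 60 coding bases around the motif are shown for the ELR genes because they include both the most abundant genes of the set and genes near 0. The capitals mark the ELR codons, which are followed by the first cysteine codon.
Cxcl1: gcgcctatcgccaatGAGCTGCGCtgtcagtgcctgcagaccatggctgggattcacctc
Cxcl2: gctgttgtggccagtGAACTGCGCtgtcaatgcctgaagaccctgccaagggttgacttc
Cxcl3: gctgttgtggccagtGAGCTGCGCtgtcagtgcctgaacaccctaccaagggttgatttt
Cxcl5: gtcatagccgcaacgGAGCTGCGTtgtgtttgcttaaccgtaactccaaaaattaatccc
The Cxcl2 and Cxcl3 coding sequences were 87.7% identical over 300 alignment columns, and their transcripts shared an exact run of 110 bases. Cxcl1 was 75.8% identical to Cxcl2 and 72.7% identical to Cxcl3, with a longest shared run of 23 bases in each case. Cxcl5 was between 46.1% and 48.9% identical to the other ELR genes. Reads can therefore be divided uncertainly between Cxcl2 and Cxcl3, and less so between either of them and Cxcl1 or Cxcl5.

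Of the 9 chemokines, 4 were detected, meaning a mean of at least 1 TPM over both libraries. All 4 had higher values in co-culture. Cx3cl1 differed most, at 3.00 times its control level, followed by Cxcl5 at just under 2 times, Cxcl1 at 1.73 times and Cxcl16 at 1.22 times. The other 5 genes were at or below 0.44 TPM in co-culture and 0.56 TPM in the control. Among all 11258 detected genes, 7257 (64.5%) had higher values in co-culture, so a shared direction does not by itself set the chemokines apart.

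**Figure D1:**
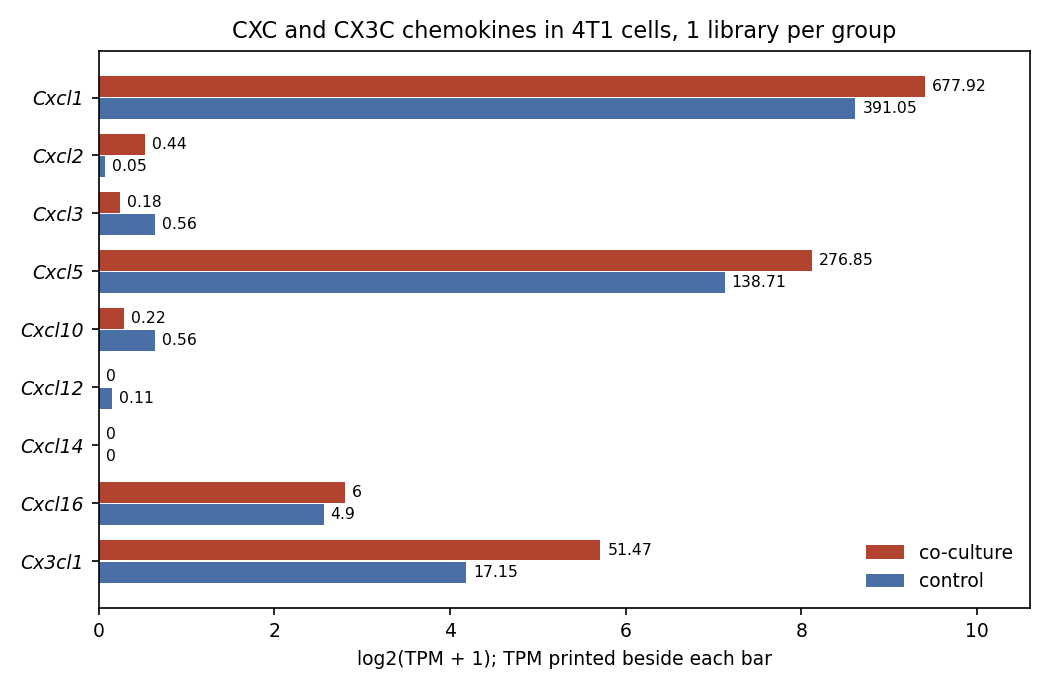
TPM of the 9 chemokines in the co-culture library (red, upper bar) and in the control library (blue, lower bar), drawn as log2(TPM + 1) with the TPM beside each bar, 1 library per group. Cxcl1, Cxcl5, Cx3cl1 and Cxcl16 are above 1 TPM in both libraries, while the other 5 are between 0 and 0.56 TPM.

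Among the ELR chemokines, Cxcl1 was the most abundant gene of the set in both libraries. Cxcl1 (ENSMUSG00000029380), known in the mouse as KC and a main neutrophil attractant, lies on chromosome 5 of GRCm38 from 90891241 to 90893115 on the plus strand and has 4 exons. It had 678 TPM in co-culture and 391 TPM in the control, a log2 ratio of 0.79. The ratio was computed as log2((co-culture TPM + 1)/(control TPM + 1)), which understates differences of genes with low values. By level, Cxcl1 ranked 209th among detected genes in co-culture and 321st in the control, so it was in the top few percent of both libraries. Its difference of 287 TPM made up 62.4% of the summed difference over the 9 chemokines.

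Cxcl5 (ENSMUSG00000029371), which encodes the neutrophil attractant also called LIX, lies on the same strand of chromosome 5 from 90759360 to 90761624. Its level was 277 TPM in co-culture and 139 TPM in the control, a log2 ratio of 0.99. This is just below the 2-fold line, a log2 ratio of 1. Cxcl5 made up 30.03% of the summed difference. Cxcl1 had 2.45 times the TPM of Cxcl5 in co-culture and 2.82 times in the control.

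Cxcl2 and Cxcl3, the remaining ELR chemokines, were not detected. Cxcl2 (ENSMUSG00000058427), which encodes the neutrophil attractant MIP-2, lies 10.8 kb beyond Cxcl1 and had 0.44 TPM in co-culture and 0.05 TPM in the control. Cxcl3 (ENSMUSG00000029379) had 0.18 TPM in co-culture and 0.56 TPM in the control. These values point in opposite directions, both genes are near the lower end of the scale, and the genes are similar in sequence, so no direction is read from either. With 0.1 added to the TPM in place of 1, their log2 ratios became 1.85 for Cxcl2 and -1.24 for Cxcl3.

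The detected and undetected ELR genes lie in 1 cluster. From the start of Cxcl5 to the end of Cxcl2 it spans 147 kb of chromosome 5 and holds 7 protein-coding genes, all on the plus strand. Going from Cxcl5 they are Ppbp, Pf4, Cxcl3, Cxcl15, Cxcl1 and Cxcl2. Ppbp and Pf4, which encode chemokines of platelets, had 0.28 and 0.44 TPM in co-culture. In the control Ppbp had 0.21 TPM and Pf4 was listed at 0. Cxcl15, known as lungkine in the mouse, was listed at 0 in both libraries. So were the 4 genes of the interval not classed as protein-coding (Gm24322, Gm43085, Gm43086 and Gm22816). The detected genes were thus near opposite ends of the cluster, and 5 protein-coding neighbours were undetected.

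**Figure D2:**
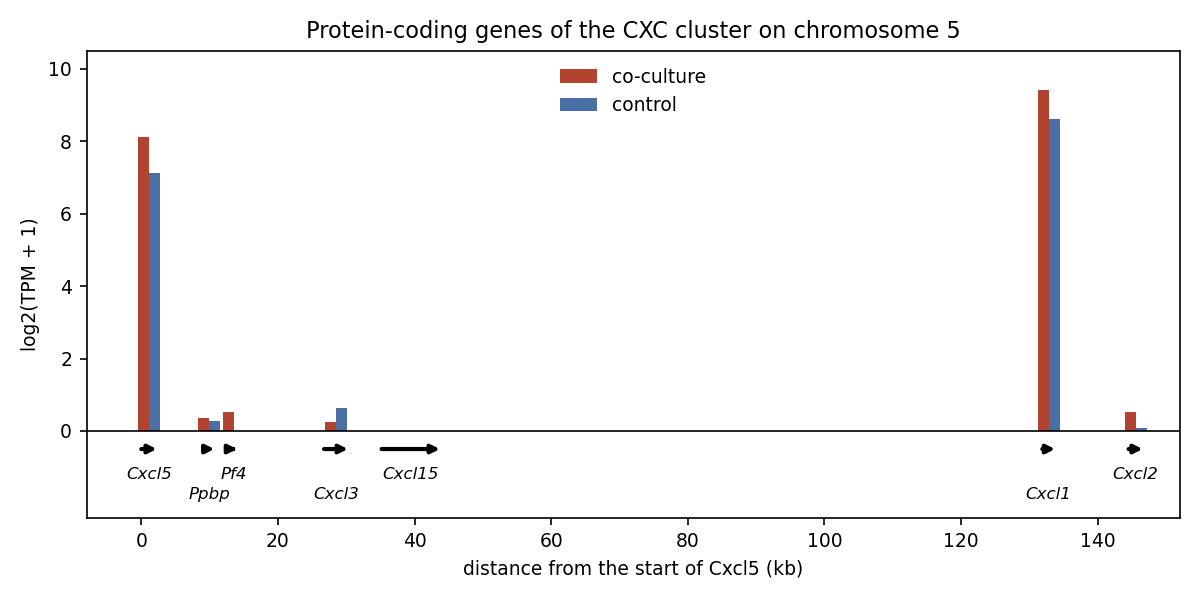
The 7 protein-coding genes of the CXC cluster on chromosome 5, with arrows for gene spans and direction by distance from the start of Cxcl5 in kb, and bars for log2(TPM + 1) in co-culture (red, left) and control (blue, right), 1 library each. Cxcl5 and Cxcl1 stand at 277 and 678 TPM in co-culture, while no gene of the other 5 exceeds 0.56 TPM in either library.

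The sequence before the start site was compared between Cxcl1, Cxcl2 and Cxcl3 because these neighbours differed so widely in level. RefSeq promoter windows (GRCm38.p6) were at hand for 7 of the 9 chemokines. Cxcl5 and Cxcl16 had no window, so their promoters could not be searched. Shown are the bases up to the first annotated start of each gene, at chr5:90890995-90891240 for Cxcl1, chr5:90903649-90903870 for Cxcl2 and chr5:90785851-90786100 for Cxcl3, all on the plus strand. The capitals mark matches to the NF-kB consensus and to the TATA box letters TATAAA, searched on both strands.
Cxcl1: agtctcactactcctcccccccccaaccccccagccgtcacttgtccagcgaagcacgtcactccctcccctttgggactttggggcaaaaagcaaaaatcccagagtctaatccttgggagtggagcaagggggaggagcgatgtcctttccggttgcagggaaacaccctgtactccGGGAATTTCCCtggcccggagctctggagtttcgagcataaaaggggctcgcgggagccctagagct
Cxcl2: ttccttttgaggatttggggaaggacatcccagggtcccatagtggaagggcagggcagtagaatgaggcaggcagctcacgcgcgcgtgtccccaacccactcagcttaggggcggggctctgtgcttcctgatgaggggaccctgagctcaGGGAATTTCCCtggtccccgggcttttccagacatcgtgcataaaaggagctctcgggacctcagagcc
Cxcl3: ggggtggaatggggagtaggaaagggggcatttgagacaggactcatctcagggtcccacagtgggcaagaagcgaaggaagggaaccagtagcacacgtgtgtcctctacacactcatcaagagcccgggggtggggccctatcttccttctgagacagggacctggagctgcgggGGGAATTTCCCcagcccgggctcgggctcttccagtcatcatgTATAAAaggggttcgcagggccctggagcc
All 3 genes held the same run of 11 bases, GGGAATTTCCC, which contains a pair of overlapping NF-kB matches. It lay at -71 to -61 from the RefSeq start in Cxcl1, at -97 to -87 in Cxcl2 and at -73 to -63 in Cxcl3. Among all 32851 windows of 250 bases, 12 held this run (0.0365%) and 1281 held an NF-kB match (3.90%). The 12 include the windows of these 3 genes, and the letters of the run were taken from Cxcl1. The run was thus shared by a gene at 678 TPM and by genes at 0.44 and 0.18 TPM in co-culture. TATAAA was matched in Cxcl3 alone of the 3, and 12.4% of all windows held it. Near their ends the Cxcl1 and Cxcl2 sequences held cataaa, which differs from TATAAA in its first letter only. A match describes letters in this window and is not a measured binding site.

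AU-rich elements in the 3' untranslated region, which carry the pentamer ATTTA, are known to shorten the life of many chemokine messages. They were counted in the same transcripts. Cxcl2 had 11 pentamers, Cxcl1 had 7, and Cxcl3 and Cxcl5 had 5 each. In the set of 10275 detected protein-coding genes the median was 2, and 22.0% had 5 or more. Cxcl12 had 4, Cxcl10 had 3, Cxcl16 had 2, Cx3cl1 had 1 and Cxcl14 had none. The longer form TTATTTATT, present in 8% of detected protein-coding genes, occurred 4 times in Cxcl2, 2 times in Cxcl1 and 1 time each in Cxcl3 and Cx3cl1. Per kb of this region, Cxcl1 had 11.8 pentamers, Cxcl3 7.75, Cxcl2 7.36 and Cxcl5 4.50. Whether these elements bear on the levels was not tested.

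The transmembrane chemokines were both detected. Cx3cl1 (ENSMUSG00000031778), which encodes fractalkine, an adhesion molecule and attractant for monocytes, natural killer cells and T cells, lies on chromosome 8 from 94772009 to 94782427 on the plus strand. It had 51.5 TPM in co-culture and 17.2 TPM in the control, a log2 ratio of 1.53. By level it ranked 2298th among detected genes in co-culture and 4972nd in the control. By log2 ratio it ranked 144th, and 1.27% of detected genes had a higher ratio. The 250 bases before its RefSeq start held no NF-kB match, and neither did those of Cxcl12 and Cxcl14. Those of Cxcl1, Cxcl2, Cxcl3 and Cxcl10 did, beside 3.90% of all windows. The Cx3cl1 window includes the GENCODE start, and only 79 of its bases lie before that start.

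Cxcl16 (ENSMUSG00000018920), a ligand of CXCR6 and a scavenger receptor for oxidised lipids, lies on chromosome 11 from 70453983 to 70459984 on the minus strand. It had 6 TPM in co-culture and 4.90 TPM in the control, a log2 ratio of 0.25. Of the detected genes, 42.7% had a higher ratio, which puts Cxcl16 near the middle of the distribution. Its span overlaps Zmynd15 on the opposite strand, which had 0.98 TPM in co-culture and 0.69 TPM in the control. Reads from bases that both genes share cannot be assigned by strand, since the sources used here do not say whether the libraries were stranded. How far their exons overlap was not measured. Cx3cl1 had 8.58 times the TPM of Cxcl16 in co-culture and 3.50 times in the control.

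The genes nearest to Cx3cl1 over the 2 libraries, by Euclidean distance in log2(TPM + 1), were Slc4a4, B4galt5 and Tor4a. Slc4a4, a sodium bicarbonate cotransporter gene, had 49.1 TPM in co-culture and 18.1 TPM in the control, at a distance of 0.10. B4galt5, a galactosyltransferase gene, had 51.0 TPM in co-culture and 18.6 TPM in the control, at a distance of 0.11. Tor4a, a torsin family gene, had 45.9 TPM in co-culture and 17.0 TPM in the control, at a distance of 0.16. Over 2 libraries this measure says that levels were alike in both and nothing more.

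The remaining CXC chemokines were close to 0. Cxcl10 (ENSMUSG00000034855), an interferon-induced ligand of CXCR3 that attracts T cells, had 0.22 TPM in co-culture and 0.56 TPM in the control. It lies on chromosome 5 from 92346638 to 92348889 within the span of Art3 on the opposite strand, which was listed at 0 in co-culture and had 0.09 TPM in the control. Its promoter window held 2 separate NF-kB matches, an AP-1 match (TGANTCA, in 6.75% of windows) and a match to the interferon-stimulated response element (in 2.98% of windows). Cxcl10 was undetected, and whether these matches act in these cells was not tested. Its neighbours Cxcl9 and Cxcl11, the other interferon-induced ligands of CXCR3, were listed at 0 in co-culture, and in the control at 0 for Cxcl9 and 0.03 TPM for Cxcl11. GENCODE lists Cxcl11 as a polymorphic pseudogene on the reference strain, and the pseudogene Gm2673 beside it was listed at 0 in both libraries.

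Cxcl12 (ENSMUSG00000061353), the stromal ligand of CXCR4 and ACKR3, on chromosome 6 from 117168535 to 117181367, was listed at 0 in co-culture and had 0.11 TPM in the control. Cxcl14 (ENSMUSG00000021508), a chemokine of epithelia on chromosome 13 from 56288643 to 56296551, was listed at 0 in both libraries. Its promoter window, like that of Cxcl10, held a match to the interferon-stimulated response element. Of 7 further CXC ligand genes that were looked up (Cxcl9, Cxcl11, Cxcl13, Cxcl15, Cxcl17, Ppbp and Pf4), none was detected, and 4 were listed at 0 in both libraries. Detected CXC and CX3C ligands in these cells were therefore Cxcl1, Cxcl5, Cxcl16 and Cx3cl1.

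Summed over the 9 chemokines, the level was 1013 TPM in co-culture and 553 TPM in the control, a ratio of 1.83. The 4 ELR genes held 94.3% of that sum in co-culture and 95.9% in the control. Cxcl1 alone held 66.9% in co-culture and 70.7% in the control. Cx3cl1 held 5.08% in co-culture and 3.10% in the control, so the largest ratio belonged to a small part of the summed message.

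By the 2-fold rule, an absolute log2 ratio of at least 1, 1 of the 4 detected chemokines was higher in co-culture (Cx3cl1) and 0 were lower. Among all detected genes, 4.95% were past this line upward and 2.14% downward, that is 557 and 241 genes. The median log2 ratio of the 4 detected chemokines was 0.89, beside 0.17 over all detected genes, whose 25th and 75th percentiles were -0.14 and 0.48. Those 4 were the members that passed the filter on low values. Over all 9 members the median was 0.25. Of the detected genes, 5.11% had a higher ratio than Cxcl5 and 9.65% a higher one than Cxcl1.

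The chemokine past the line was Cx3cl1 under each of the 3 other scalings of the libraries. An unweighted TMM factor lowered the co-culture values by 0.22 on the log2 scale, and the all-gene split became 321 higher and 379 lower. Centring by abundant genes (mean of at least 10 TPM), which shifted ratios by 0.12, gave 406 higher and 293 lower. With the TMM factor, Cx3cl1 had a log2 ratio of 1.32, Cxcl5 of 0.77, Cxcl1 of 0.57 and Cxcl16 of 0.06. All 4 stayed above 0 in every scaling tried, though Cxcl16 barely did.

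**Figure D3:**
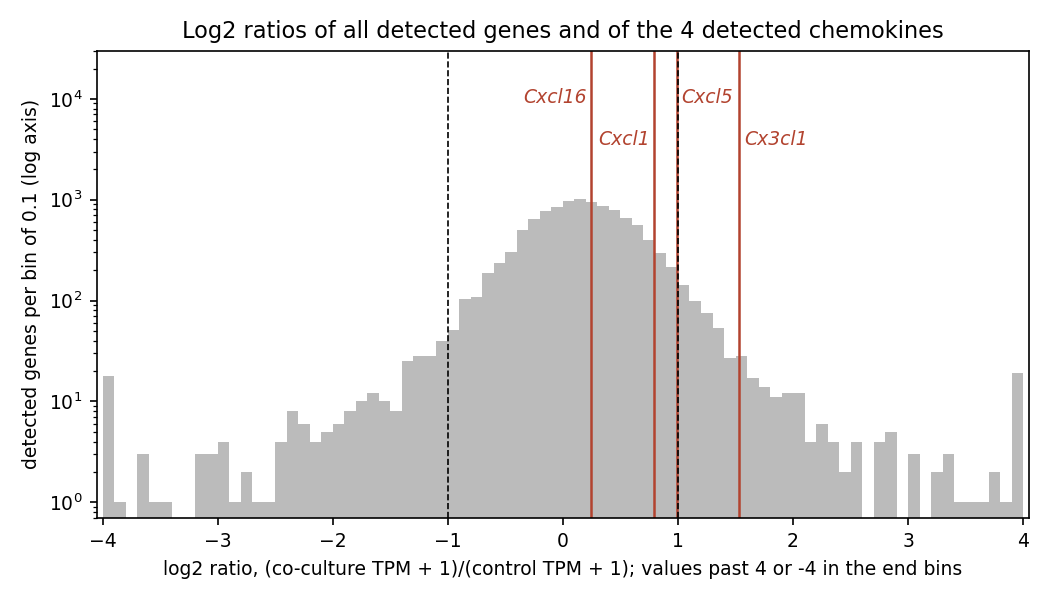
Distribution of log2 ratios of the 11258 detected genes in bins of 0.1 on a logarithmic count axis, with values past 4 or -4 in the end bins, dashed lines at -1 and 1, and red lines for the 4 detected chemokines. Cx3cl1 at 1.53 is the chemokine past the upper line, Cxcl5 at 0.99 touches it from below, and Cxcl16 at 0.25 lies near the middle.

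Receptors for the detected ligands were at or near 0 in the same cells. Cxcr2, the receptor for the ELR chemokines, had 0.18 TPM in co-culture and 0.02 TPM in the control. Cx3cr1, the fractalkine receptor, had 0.01 TPM in both libraries. Cxcr6, the CXCL16 receptor, was listed at 0 in co-culture and had 0.03 TPM in the control. Of 9 receptor genes, only Ackr3 was detected. Ackr3 encodes an atypical receptor that takes up CXCL12 without G protein signalling, and had 9.98 TPM in co-culture and 4.00 TPM in the control, a log2 ratio of 1.13. The ratio was 0.94 under TMM scaling and 0.74 at a pseudocount of 5, both below the 2-fold line. Its ligand gene Cxcl12 was undetected, and Cxcr4, the signalling receptor for CXCL12, was listed at 0 in both libraries.

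Detected genes in the list of proteases that shed or trim chemokines had higher values in co-culture. Of 9 genes in this list, 6 were detected, and all 6 had higher values, beside 64.5% of all detected genes. Their median log2 ratio was 0.64, beside 0.17 over all detected genes. Of the 6, 1 was past 2-fold upward, beside 4.95% of all detected genes. Adam17, which encodes the inducible sheddase of CX3CL1, had 25.7 TPM in co-culture and 14.1 TPM in the control (log2 ratio 0.82). Adam10, the gene of the constitutive sheddase of CX3CL1 and CXCL16, had 23.8 TPM in co-culture and 12 TPM in the control (0.93). Both sheddase genes thus had higher values, each short of the 2-fold line. Mmp14, which encodes a membrane-bound matrix metalloproteinase able to cleave CXCL12, had 69.2 TPM in co-culture and 33.7 TPM in the control (1.02). Its ratio was below the 2-fold line when centred by abundant genes (0.91), under TMM scaling (0.80) and at a pseudocount of 5 (0.94). Mmp9 had a ratio of 0.46. The genes of the iRhom proteins that carry ADAM17 to the cell surface, Rhbdf1 and Rhbdf2, had ratios of 0.36 and 0.33.

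Genes of NF-kB and C/EBP factors, which act on chemokine promoters, and of NF-kB inhibitors differed in both directions. Of 16 detected genes in this list, 9 had higher and 7 had lower values, beside 64.5% higher over all detected genes. The list median was 0.09, beside 0.17 over all detected genes. In the list 1 gene was past 2-fold upward and 1 downward, beside 4.95% and 2.14% of all detected genes. The gene past 2-fold upward was Tnfaip3 (A20, an NF-kB inhibitor), with 20.7 TPM in co-culture and 4.35 TPM in the control. The gene past 2-fold downward was Cebpd, a C/EBP factor gene of the acute phase, with 2.99 TPM in co-culture and 9.23 TPM in the control. Cebpb had 131 TPM in co-culture and 235 TPM in the control (log2 ratio -0.84), and Ikbkg, the gene of the regulatory IKK subunit, had a ratio of -0.77. Of the NF-kB subunit genes, Nfkb1 had 83.9 TPM in co-culture and 53.5 TPM in the control (0.64), and Rela had 41.6 TPM in co-culture and 41.7 TPM in the control. The inhibitor gene Nfkbia had a ratio of 0.58. No C/EBP match (TTGCNNAA, in 9.56% of all windows) was found in the promoter windows of the 7 chemokines searched.

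Of 19 detected genes of upstream cytokine receptors and adaptors, 17 had higher and 2 had lower values, with a median of 0.32, beside 64.5% higher and a median of 0.17 over all detected genes. The 1 gene of 19 past 2-fold upward, 5.26%, is close to the 4.95% of all detected genes. Il1r1, the signalling receptor for interleukin 1, had 9.06 TPM in co-culture and 3.06 TPM in the control (log2 ratio 1.31) and was that gene. Tlr4 had 4.42 TPM in co-culture and 1.78 TPM in the control (0.96), Ifngr2 had a ratio of 0.83 and Il17ra of -0.53. The interferon signal transducers had 7 higher and 2 lower values of 9, with a median of 0.34. In that list Jak2, a kinase of cytokine receptors, had 17.8 TPM in co-culture and 6.90 TPM in the control (1.25). Stat2 and Tyk2 had ratios of 0.76 and 0.62.

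Genes that set the decay of chemokine messages had a median of 0.24, with 8 of 9 higher, 1 lower and none past 2-fold, beside a median of 0.17 and 64.5% higher over all detected genes. Zfp36 (tristetraprolin), which binds AU-rich elements and speeds decay, had 8.76 TPM in co-culture and 4.37 TPM in the control (log2 ratio 0.86). Mapk14, the p38 kinase gene, had a ratio of 0.67, Zfp36l2 of 0.49 and Zc3h12a, the gene of the ribonuclease Regnase-1, of 0.29.

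**Figure D4:**
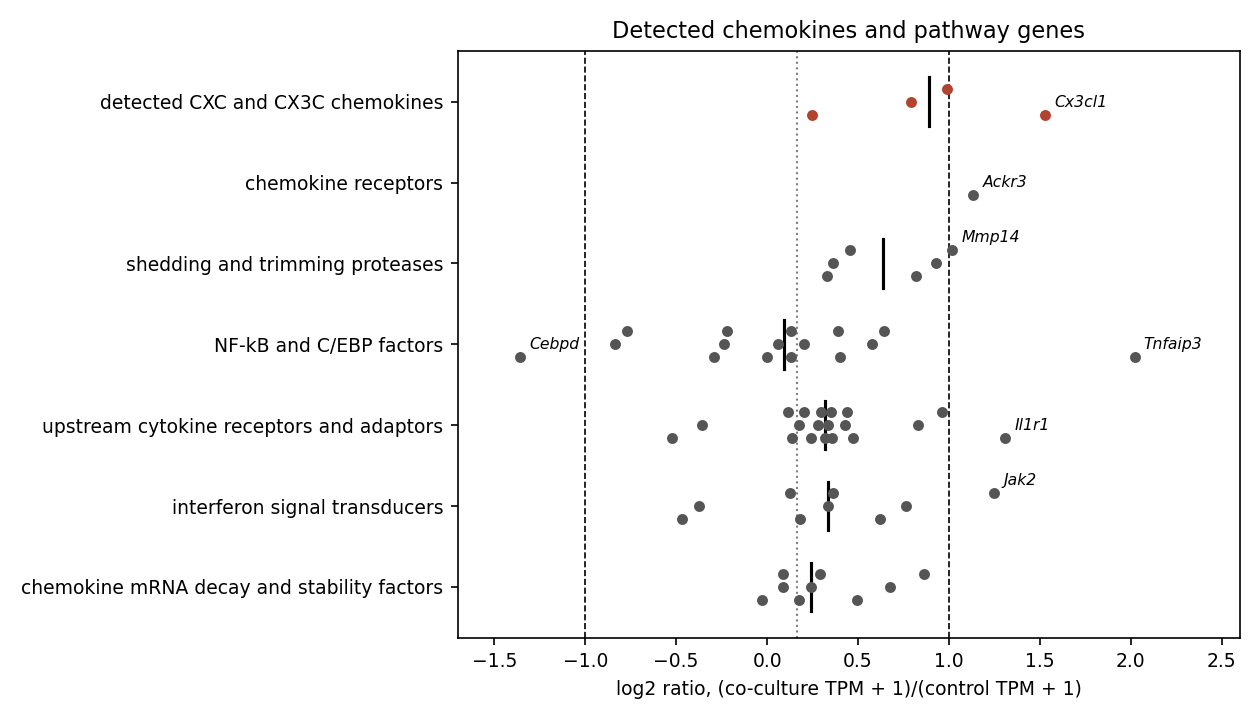
Log2 ratios of the detected chemokines (red) and of detected genes in 6 pathway lists (grey), with list medians as black bars, the median of all detected genes as a dotted line and dashed lines at -1 and 1. The chemokine median is 0.89, and the genes past the dashed lines are Cx3cl1, Ackr3, Mmp14, Tnfaip3, Il1r1 and Jak2 upward and Cebpd downward.

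Macrophages can make several of these chemokines, so markers of other cells were read beside them. Of 17 macrophage markers, 2 were detected, and 10 were listed at 0 in both libraries, among them Adgre1, Tyrobp and Ptprc. Lyz2 had 0.04 TPM in co-culture and was listed at 0 in the control, and Csf1r had 0.01 TPM in co-culture and 0.03 TPM in the control. The summed level of the list was 40.6 TPM in co-culture and 66.7 TPM in the control, most of it Cd68 with 27.8 TPM in co-culture and 57.7 TPM in the control. The other detected marker, Cd14, had the opposite direction, with 12.4 TPM in co-culture and 8.87 TPM in the control. The markers set as defining (Adgre1, Csf1r, Lyz2, Tyrobp and Ptprc) were at or below 0.04 TPM in both libraries. Of 8 neutrophil markers, S100a8 was detected, with 4.66 TPM in co-culture and 0.60 TPM in the control, and S100a9 was listed at 0 in both. Of 8 fibroblast markers, Pdgfra was detected, with 10.2 TPM in co-culture and 5.60 TPM in the control. The part of such cells in the chemokine values was not tested. For the cancer cells, 3 of 6 carcinoma epithelial markers were detected, all 3 with higher values in co-culture. The most abundant, the keratin gene Krt8, had 630 TPM in co-culture and 548 TPM in the control. Krt19 alone was past 2-fold, with 2.64 TPM in co-culture and 0.18 TPM in the control, beside 4.95% of all detected genes upward. The epithelial genes Epcam and Cdh1 were at or below 0.04 TPM in both libraries. In bulk RNA, fewer cells that express a gene and less RNA per cell cannot be told apart.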

How the data were processed

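Messenger RNA was sequenced in 1 co-culture library and 1 control library. The authors deposited 1 table of TPM values rounded to 2 decimals. HISAT2 2.1.0, RSEM 1.2.31 and build GRCm38.p5 are listed in the submitters' processing notes, without roles. Symbols, positions and transcripts came from GENCODE M21 (GRCm38), which named 51633 of 51912 Ensembl identifiers; 884 assembled loci (MSTRG) were left out. Promoter windows are RefSeq sequences on GRCm38.p6.

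The log2 ratio used a pseudocount of 1, detection a mean of at least 1 TPM, and 2-fold an absolute log2 ratio of at least 1. With 1 library per group there is no p-value or counting interval. Transcript features came from the longest complete protein-coding transcript, aligned with Biopython 1.88. The members and lists were chosen with earlier results of these data known. Genes named from a list were those past 2-fold and up to 4 with the largest absolute ratios, and from marker lists the most abundant and defining ones. A gene that this rule selects is not reported here. Other genes, the motifs and the shared 11-base run were chosen after values were seen. Other pseudocounts, filters, thresholds and scalings were tried. The fold rule and scalings were tested on simulated data (Python 3.11.15, NumPy 2.4.6, pandas 2.3.3).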

Additional observations from a re-analysis of the deposited data

How the results depend on the processing

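Cx3cl1 was past 2-fold under each of the pseudocounts, filters and scalings tried, with log2 ratios from 1.32 to 1.58. With an absolute log2 ratio of at least 2 in place of 1, 0 chemokines were past the line, while 75 detected genes were past it upward and 66 downward. The median over the chemokines was 0.25 with no expression filter, because the 5 undetected genes then count. Over all detected genes, a pseudocount of 0.1 gave 886 higher, a pseudocount of 5 gave 199 higher and 129 lower, and a mean of at least 10 TPM gave 244 higher and 120 lower. The TMM factor gave 321 higher and 379 lower, and protein-coding genes alone, an alternative added after the data were seen, gave 155 lower. Among the 6 pathway genes past 2-fold, Tnfaip3 stayed past it in each scaling and pseudocount tried, an alternative added after the data were seen. A pseudocount of 5 took Il1r1 to 0.80, Jak2 to 0.94 and Cebpd to -0.83, and the TMM factor took Cebpb to -1.05. No paired analysis was possible because each group holds 1 library. Depth is unknown, so how far counting error limits the values near 0 could not be set.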
